A study of Mus musculus with 15 samples.

Results

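The 10 genes described here are Pecam1, Kdr, Cdh5, Tek, Tie1, Flt1, Emcn, Ehd3, Plvap and Vegfa, taken by name from the 46517 genes of the RNA count files. Of these, 9 are endothelial genes, and Vegfa encodes a ligand that endothelial cells respond to. The study compared kidneys of newborn (P0) C57BL/6 mice that carry floxed Dnmt1 alleles and the Six2Cre driver (Six2Cre Dnmt1 f/f, here KO) with newborn kidneys that carry the floxed alleles alone (Dnmt1 f/f, here control). Dnmt1 is the maintenance DNA methyltransferase, and Six2Cre is active in nephron progenitors, which form podocytes and tubules. Endothelial cells belong to a lineage that Six2Cre does not target, and the 9 genes were taken as markers of it. RNA sequencing covered 3 control and 3 KO samples, and reduced representation bisulfite sequencing (RRBS), which reads DNA methylation mostly at CpG-rich fragments, covered 3 control, 3 KO and 3 wild type adult samples (6 weeks). The labels name Six2+ kidney cells as the source, while the protocol describes DNA from whole kidneys. Endothelial transcripts were detected in every RNA library, which does not show what cells the RRBS samples held. Nothing in the labels says whether a sample is 1 animal or a pool, so p-values measure the spread between these samples only.

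Blood vessels of the kidney grow toward epithelial sources of VEGF-A, the product of Vegfa, which podocytes and tubule cells make. VEGF-A binds the receptors VEGFR2 (Kdr) and VEGFR1 (Flt1) on endothelial cells, and VEGFR1 also acts as a decoy. A parallel pathway runs through the angiopoietins and the receptor Tie2 (Tek) with its partner Tie1. The other members form junctions (Cdh5, Pecam1), cover the vessel surface (Emcn), bridge fenestrae and caveolae (Plvap) or act in membrane trafficking and mark glomerular capillaries (Ehd3). Pecam1 is also carried by platelets and leukocytes.

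The stretch before the annotated start differed widely in CpG content between members. RefSeq (GRCm38.p6) promoter entries were matched for 7 members, with 8 starts, and not for Pecam1, Cdh5 and Plvap. The 250 bases before 4 of these starts are shown 5′ to 3′, with each CpG in capitals, because they run from poor to rich in CpG and 1 of them was read by RRBS.
Emcn, chr3:137340828-137341077, plus strand: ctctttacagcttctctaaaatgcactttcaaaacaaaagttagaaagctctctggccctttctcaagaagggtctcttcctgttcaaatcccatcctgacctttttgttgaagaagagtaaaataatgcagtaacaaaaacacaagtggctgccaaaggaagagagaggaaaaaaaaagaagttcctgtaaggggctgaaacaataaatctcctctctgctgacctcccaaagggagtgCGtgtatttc
Tie1, chr4:118489850-118490099, minus strand: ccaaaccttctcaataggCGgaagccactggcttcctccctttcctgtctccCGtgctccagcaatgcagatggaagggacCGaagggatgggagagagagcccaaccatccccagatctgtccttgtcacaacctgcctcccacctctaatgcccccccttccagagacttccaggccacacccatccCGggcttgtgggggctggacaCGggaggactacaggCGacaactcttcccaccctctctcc
Vegfa, chr17:46032378-46032627, minus strand: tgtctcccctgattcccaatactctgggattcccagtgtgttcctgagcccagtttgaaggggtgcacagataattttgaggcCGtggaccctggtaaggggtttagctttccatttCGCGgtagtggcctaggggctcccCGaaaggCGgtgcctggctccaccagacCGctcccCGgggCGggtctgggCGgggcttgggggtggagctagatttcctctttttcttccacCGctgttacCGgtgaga
Ehd3, chr17:73804591-73804840, plus strand: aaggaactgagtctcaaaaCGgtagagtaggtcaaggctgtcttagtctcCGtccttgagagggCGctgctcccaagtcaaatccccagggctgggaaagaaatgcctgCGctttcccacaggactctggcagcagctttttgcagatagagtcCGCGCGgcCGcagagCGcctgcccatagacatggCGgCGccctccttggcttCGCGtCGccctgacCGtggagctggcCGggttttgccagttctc
Emcn held 1 CpG, Tie1 6, Vegfa 11 and Ehd3 16, against a median of 6 over 32851 RefSeq promoters of this length. Tek held 2, Kdr 16 and Flt1 23. RRBS covered 6 CpG positions of the Flt1 stretch and 2 of the Vegfa stretch with 10 or more calls in each of its 9 libraries. Sites for ETS factors, a family active in endothelial cells, were searched on both strands as AGGAAG and as CCGGAA only. AGGAAG was present in 3 of the 8 stretches (Emcn, Tie1 and Flt1), against 29.5% of all promoters. CCGGAA was present in 1, that of Kdr, against 12.0%, and other forms were not searched.

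Reads assigned to genes ranged from 26773937 to 34102567 per RNA library. The share of reads not assigned to a gene was 22.9% to 30.9% in controls, against 30.7% to 35.8% in KO samples, and its part in the results was not tested. Dnmt1, the targeted gene, was lower in every KO sample, at 105 ± 9.57 CPM (reads of a gene per library size, scaled with TMM factors; SD, n = 3) against 175 ± 16.6 (SD, n = 3), a log2 fold change of -0.74 ± 0.12 (SE) with an adjusted p of 0.00577.

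For each of the 10 genes the highest KO sample lay below the lowest control, and 6 of them passed an adjusted p of 0.05: Pecam1, Cdh5, Tek, Tie1, Emcn and Plvap. Over the 18132 genes tested, 8.23% were called lower and 6.36% higher, and 17.8% had every KO sample below every control. The count of 6 was 3 without KO sample 1 or 2 and 9 without control sample 3. The share of all genes called in either direction moved too. It was 14.6% with all samples, 7.23% and 8.13% without KO sample 1 or 2, and 27.4% without control sample 3. Log2 fold changes (KO minus control) of the 10 genes ran from -1.08 to -0.35, with a median of -0.74, against a median of 0.00 over all tested genes. In bulk samples, fewer cells of a type and less RNA per cell cannot be told apart.

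**Figure D1:**
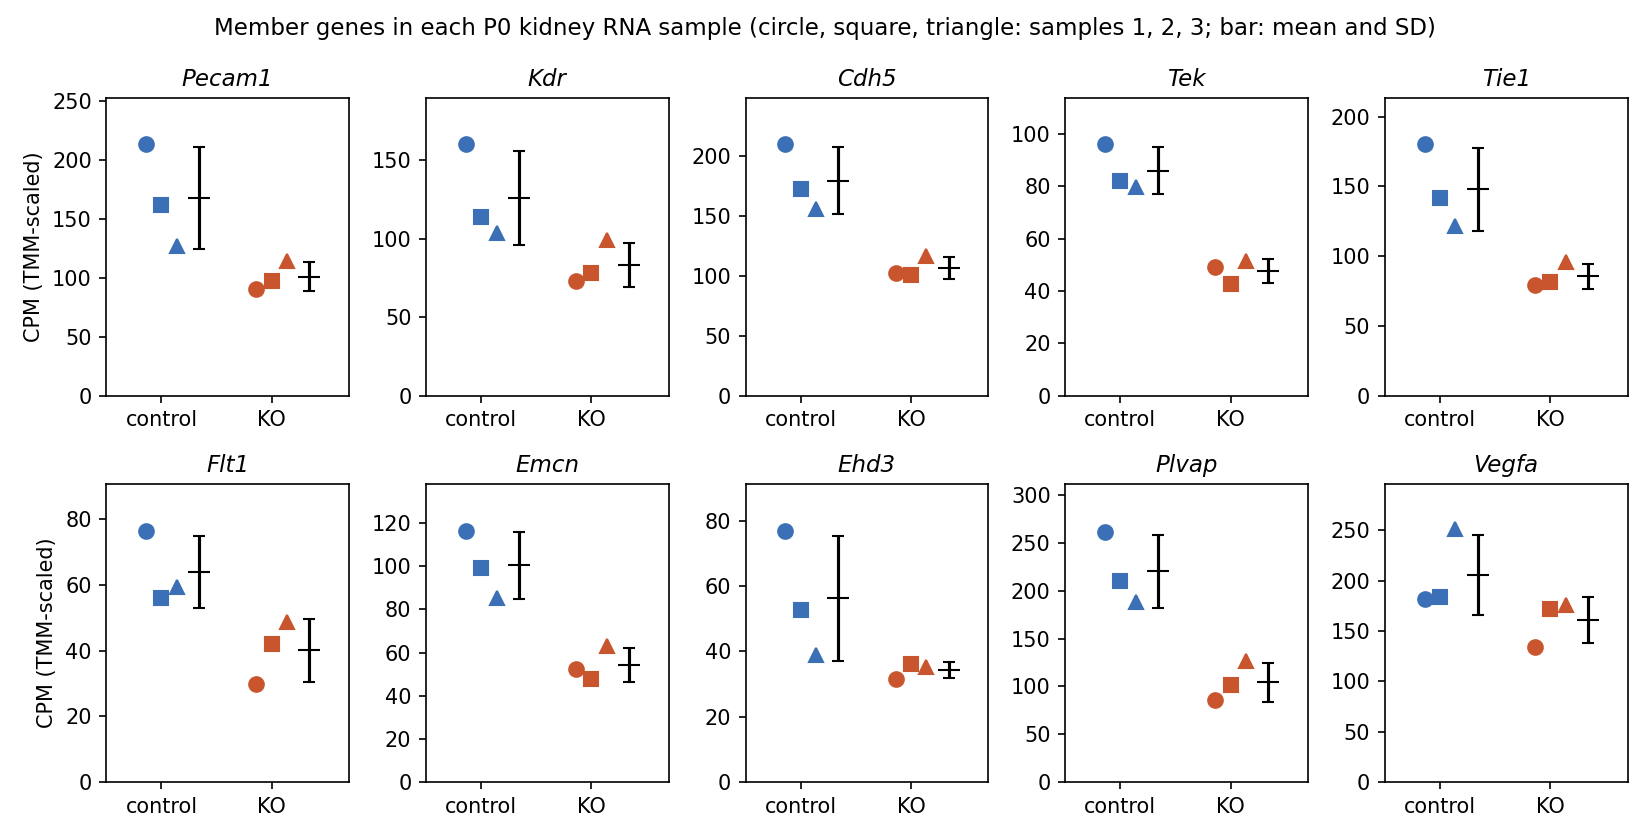
CPM of each member gene (y axis, from 0) in 3 control and 3 KO newborn kidney RNA samples, with the mean and SD beside each group. No KO sample reached the lowest control for any of the 10 genes, and the groups came closest for Kdr, Ehd3 and Vegfa.

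Among the receptors, Tek (chr4:94739086-94874976, gene bounds here and below from RefSeq, GRCm38.p6), which encodes Tie2, was 44.6% lower in KO. The controls held 96.2, 82.2 and 79.6 CPM and the KO samples 49.0, 42.6 and 51.4. The groups were far apart for their spread, and on the log2 scale the change came to -0.85 ± 0.12 (SE; adjusted p = 0.00312 by edgeR). Tie1 (chr4:118471191-118489849), the orphan receptor that pairs with Tie2, gave 180, 142 and 122 CPM in controls, against 79.4, 81.6 and 95.7 in KO samples. It fell by 0.79 ± 0.16 on the log2 scale (adjusted p = 0.0142).

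The VEGF receptors had negative fold changes that did not pass the threshold. Kdr (chr5:75932827-75979072), the main signalling receptor for VEGF-A, read 160, 114 and 104 CPM in controls, against 72.9, 77.9 and 99.4 in KO samples. KO sample 3 lay just under the lowest control, and the log2 fold change was -0.60 ± 0.19 (95% interval -1.03 to -0.16, adjusted p = 0.0760). Flt1 (chr5:147561604-147726438) read 76.5, 56.0 and 59.3 CPM in controls, against 29.7, 42.0 and 48.7 in KO samples. Its log2 fold change was -0.67 ± 0.20 (95% interval -1.13 to -0.21, adjusted p = 0.0593). Without control sample 3 both passed, at adjusted p = 0.0153 for Kdr and 0.0290 for Flt1. With the DESeq2 Wald test, limma voom or no low-count filter, Kdr, Flt1 and Ehd3 passed as well, which made 9 of 10, and Vegfa did not. Those fits called 19.4%, 27.8% and 10.2% of all genes in either direction, against 14.6% in the main fit.

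The ligand Vegfa (chr17:46016993-46032377) read 182, 184 and 251 CPM in controls, against 134, 172 and 176 in KO samples. Control sample 3 was the highest here, while control sample 1 was the highest for the other 9 genes. The log2 fold change was -0.35 ± 0.17 (95% interval -0.75 to 0.04, adjusted p = 0.221), so a change was not established in either direction.

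Both junction genes fell. Cdh5 (chr8:104101613-104144504) encodes VE-cadherin, the adhesion protein of endothelial junctions, and read 211, 173 and 156 CPM in controls, against 102, 101 and 117 in KO samples. Its log2 fold change was -0.75 ± 0.14 (adjusted p = 0.00979). Pecam1 (chr11:106654213-106715281) read 213, 162 and 127 CPM in controls, against 90.5, 97.7 and 114 in KO samples. The controls spread more for Pecam1 than for Cdh5, and its log2 fold change was -0.73 ± 0.19 (adjusted p = 0.0391). The call on Pecam1 was lost when KO sample 1, 2 or 3, or control sample 1 or 2, was left out, with adjusted p from 0.0704 to 0.160. The call on Cdh5 was lost without KO sample 1 or 2, at adjusted p = 0.0596 and 0.0530, and so was that on Tie1, at 0.0760 and 0.0643.

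The largest fall among the 10 genes was that of Plvap (chr8:71497753-71511806), the diaphragm protein of fenestrated capillaries. The controls held 262, 211 and 188 CPM and the KO samples 85.8, 101 and 126. The mean fell from 220 ± 37.8 to 104 ± 20.5 CPM (SD, n = 3 each), a log2 fold change of -1.08 ± 0.18 (adjusted p = 0.00577). Emcn (chr3:137341062-137431069), the sialomucin endomucin, read 117, 99.4 and 85.4 CPM in controls, against 52.3, 47.7 and 62.9 in KO samples. It fell by 0.89 ± 0.15 on the log2 scale (adjusted p = 0.00672). Ehd3 (chr17:73804841-73832093) read 77.0, 52.7 and 39.0 CPM in controls, against 31.4, 36.1 and 35.1 in KO samples. The 3 KO samples were tight and the controls were not, and the log2 fold change of -0.72 ± 0.23 missed the threshold (adjusted p = 0.0728). Without control sample 1 it was -0.43, and without control sample 3 it passed, at -0.93 (adjusted p = 0.00341).

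The 9 endothelial genes shared most of their order across samples. Their geometric mean was 141, 110 and 96.7 CPM in control samples 1 to 3 and 60.6, 64.6 and 76.4 CPM in KO samples 1 to 3. Control sample 1 was the highest control for 9 of the 10 genes and KO sample 3 the highest KO sample for 9. Without control sample 1 the median log2 fold change of the 10 genes was -0.58, and without control sample 3 it was -0.90.

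Each gene was then set against the mean log2 level of the 9 endothelial genes in its own sample, which removes what they share. An endothelial gene was left out of the mean it was set against. Plvap lay at 1.001, 1.059 and 1.08 in controls and at 0.56, 0.72 and 0.82 in KO samples, so it lay below its control level in each of them, with a mean difference of -0.345. Kdr lay at 0.21, 0.06 and 0.12 in controls and at 0.30, 0.30 and 0.43 in KO samples, 0.22 higher on average. For the other 8 genes, Vegfa included, the groups overlapped. The 18123 tested genes outside the 9 were set against the mean of all 9. Of these, 66.1% had groups that did not overlap, and 2.68% had every KO sample below every control. Most of them thus had every KO sample above every control, as Kdr did. No test was made, because the scale was built from the genes it describes.

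**Figure D2:**
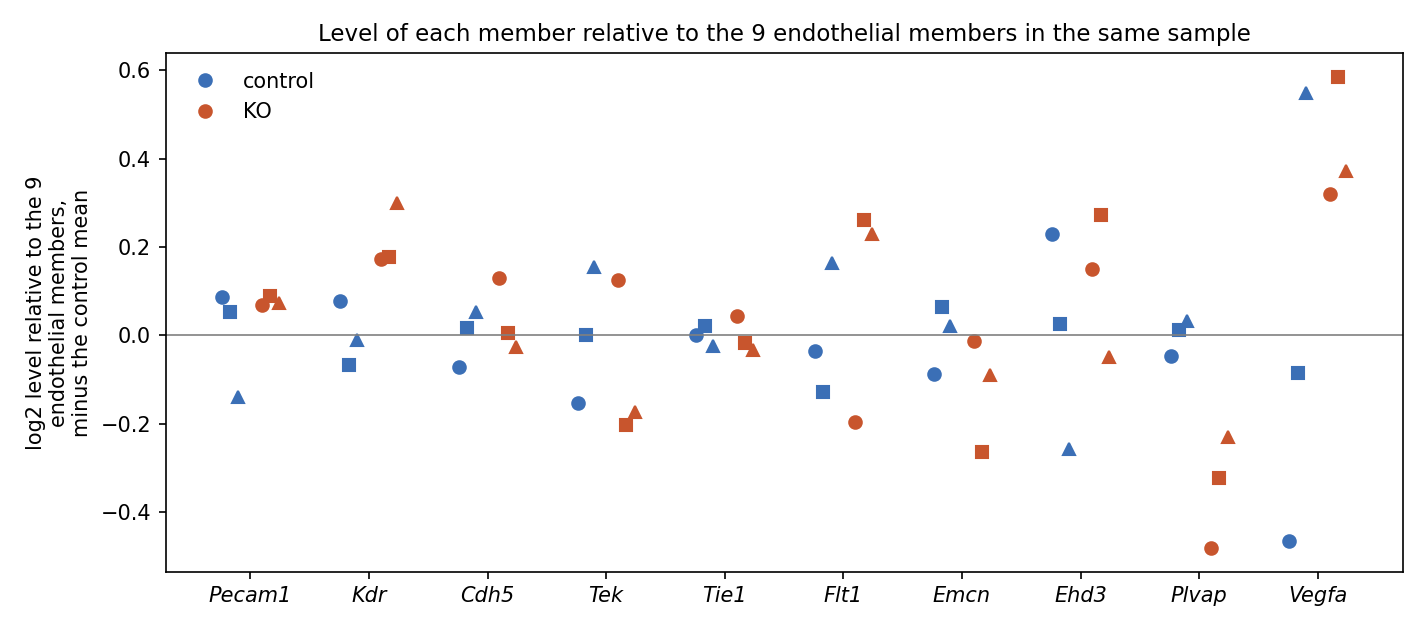
Log2 level of each gene relative to the mean of the 9 endothelial genes in the same sample (y axis), in 3 control and 3 KO samples. An endothelial gene was left out of the mean it was set against, and the control mean of each gene was set to 0. Plvap lies below the controls in all 3 KO samples. Kdr lies above them in all 3, as did most tested genes outside the 9 on this scale.

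The wider list of VEGF and angiopoietin genes held 16 genes, and Vegfa, Kdr, Flt1, Tek and Tie1 of the members are among them. Of the 16, 5 were lower (Tek, Tie1, Angpt1, Angpt2 and Ptprb) and 0 higher, beside 8.23% lower and 6.36% higher over all genes. The median log2 fold change of the list was -0.48. The count of 5 was 2 without KO sample 1 or 2, 3 without control sample 1 and 9 without control sample 3. In these fits 7.23%, 8.13%, 9.35% and 27.4% of all genes were called in either direction, against 14.6% with all samples. Angpt2, a context-dependent Tie2 ligand that endothelial cells release, fell the most. The controls held 35.5, 41.6 and 24.3 CPM and the KO samples 10.002, 12.6 and 16.4, a log2 fold change of -1.38 ± 0.25 (adjusted p = 0.00788). Angpt1, the activating Tie2 ligand, read 30.3, 34.4 and 30.9 CPM in controls, against 17.7, 17.6 and 24.5 in KO samples (log2 fold change -0.68 ± 0.17, adjusted p = 0.0291). Ptprb, the endothelial phosphatase that acts on Tie2, fell by 0.66 ± 0.16 on the log2 scale (adjusted p = 0.0256). The call on Angpt1 was lost without KO sample 1 or 2 or control sample 1 or 2 (adjusted p from 0.0630 to 0.130), and that on Ptprb without any 1 KO sample or control sample 1 (0.0752 to 0.108).

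The remaining ligands and receptors did not pass. Vegfb was at -0.30 and Angpt4 at -0.92 (adjusted p = 0.178 and 0.111). The lymphatic growth factors Vegfc and Vegfd were at 0.26 and 0.26, and Pgf at 0.19 (adjusted p = 0.377, 0.353 and 0.690). Of the co-receptors, Nrp1 was at -0.25 and Nrp2 at -0.34 (adjusted p = 0.180 and 0.267). Flt4, the receptor for VEGF-C and VEGF-D, was at -0.06 (adjusted p = 0.860), and its sign turned with upper-quartile scaling and without control sample 1.

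**Figure D3:**
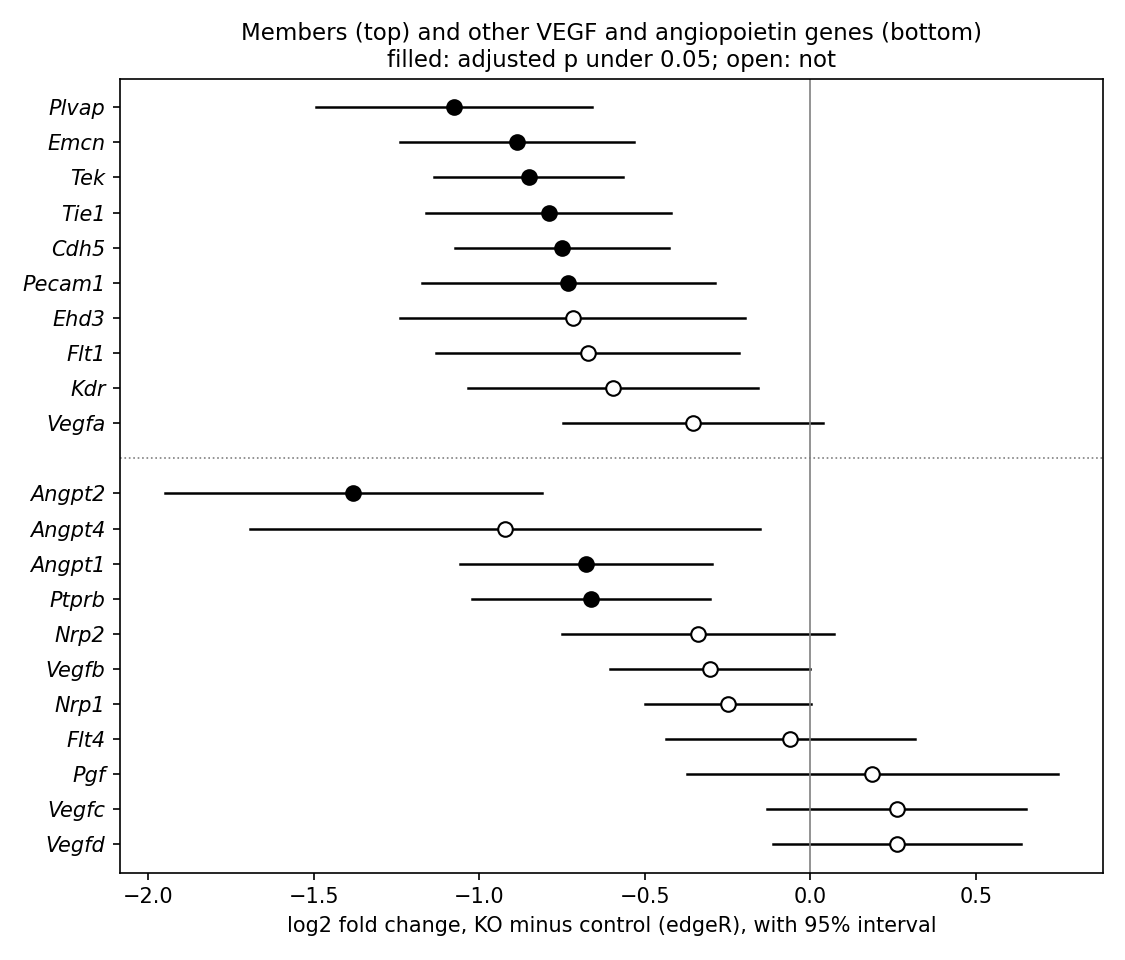
Log2 fold change (KO minus control, x axis) with its 95% interval for the 10 genes and for the other genes of the VEGF and angiopoietin list. Filled points passed an adjusted p of 0.05, and the 3 points to the right of 0 are Vegfc, Vegfd and Pgf.

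Of 42 further endothelial genes tested, 15 were lower and 0 higher, with a median log2 fold change of -0.54, beside 8.23% lower and 6.36% higher over all genes. The count of 15 was 5 without KO sample 1 or 2, 8 without control sample 1 and 26 without control sample 3. All genes called in either direction were again 7.23%, 8.13%, 9.35% and 27.4% in these fits, against 14.6% with all samples. Adgrf5, an adhesion receptor, read 137, 126 and 143 CPM in controls, against 66.4, 62.7 and 64.5 in KO samples, a log2 fold change of -1.07 ± 0.10 (adjusted p = 0.000500). Vwf, von Willebrand factor, fell from 14.7 ± 0.450 to 4.70 ± 1.39 CPM (SD, n = 3 each; log2 fold change -1.65, adjusted p = 0.00291). Mmrn2, an endothelial matrix protein, fell by 0.89 on the log2 scale (adjusted p = 0.00426). Among transcription factors, Epas1 was at -1.07, Lmo2 at -0.54 and Sox17 at -0.56 (adjusted p = 0.0110, 0.0201 and 0.0358).

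Lists for subtypes of endothelium were counted in the same way, beside 8.23% lower and 6.36% higher over all genes. They share genes with the lists above, among them Plvap, Ehd3, Sox17 and Angpt2, so their counts are not separate results. Of 8 arterial genes 3 were lower, including the connexin genes Gja4 (-0.78) and Gja5 (-1.30), with a list median of -0.54. There 6 fold changes were negative and 2 positive, Efnb2 at 0.30 and Jag1 at 0.24 (adjusted p = 0.152 and 0.46). Of 5 venous and peritubular genes 2 were lower, Plvap and Igfbp3 (-0.77), with a list median of -0.51. There 4 fold changes were negative and 1 positive, Nr2f2 at 0.23 (adjusted p = 0.3375). Of 6 tip cell genes 2 were lower, Angpt2 and Apln (-0.92). None of 5 glomerular or 6 lymphatic endothelial genes passed, and their medians were 0.02 and 0.15. The gene with the smallest p in each was Tbx3 (0.46, adjusted p = 0.0708) and Prox1 (-0.72, adjusted p = 0.0902). Other genes of these lists, chosen after their values were seen, had the opposite sign, with Ehd3 at -0.72 in the glomerular list (adjusted p = 0.0728) and Lyve1 at 0.87 and Reln at 0.53 in the lymphatic list (adjusted p = 0.159 and 0.230). The calls on Epas1, Lmo2, Sox17, Gja4, Gja5, Igfbp3 and Apln were each lost under at least 1 alternative, while those on Adgrf5, Vwf, Mmrn2 and Angpt2 held in all 15. Differences between these lists were not tested.

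Cell types next to the vessels gave different counts, beside 8.23% lower and 6.36% higher over all genes. All 10 tubule genes were lower, with a median of -3.32, and 8 of 10 podocyte genes, with a median of -1.53. The summed level of the tubule genes was 2395, 2464 and 4806 CPM in control samples 1 to 3, against 351 to 428 in KO samples. For podocyte genes it was 948 to 1395 CPM in controls, against 485 to 558 in KO samples. Of 11 mural cell genes 1 was lower, Cspg4 (-0.59, adjusted p = 0.0291), with a median of -0.38 and summed levels of 1825 to 2697 CPM in controls and 1104 to 1746 in KO samples. Ren1, renin, chosen after its values were seen, read 1004, 422 and 385 CPM in controls, against 130, 113 and 349 in KO samples (log2 fold change -1.61, adjusted p = 0.0744), and without it the sums were 1440 to 1693 and 990.2 to 1397 CPM. Of 7 stromal genes 3 were higher, among them Foxd1 (1.63), and 6 had a positive fold change. Of 7 ureteric genes 2 were higher, Ret (0.92) and Calb1 (0.56), and 4 fold changes were positive. The 3 negative ones, Aqp2 (-0.585), Wnt11 (-0.37) and Hsd11b2 (-0.09), did not pass. Summed levels overlapped, at 2977 to 3599 CPM in controls and 2994 to 3608 in KO samples for stroma. For ureteric genes they were 780 to 1350 and 1047 to 1506. Among 9 leukocyte genes 2 were higher, C1qa (1.14) and Ptprc (0.79), while Csf1r, chosen after its values were seen, was at -0.58 with every KO sample below every control (adjusted p = 0.141). Of 3 platelet genes tested 0 passed, and Itgb3 had the smallest p, at -0.93 (adjusted p = 0.144). The summed level was 108 to 134 CPM in controls and 117 to 193 in KO samples for leukocyte genes, and 18.0 to 21.0 against 14.4 to 18.9 for platelet genes. Of 12 hypoxia targets 1 was lower, Ndrg1 (-1.45), and of 6 erythroid genes 1, Slc4a1 (-1.85). Of 6 nephron progenitor genes, Cited1 was lower (-2.53) and Osr1 (0.95) and Eya1 (0.65) were higher. The calls on Cspg4, Ret, Calb1, C1qa, Ptprc, Slc4a1, Osr1 and Eya1 were each lost under at least 1 alternative. The part of any of these cell types in the endothelial result was not tested.

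**Figure D4:**
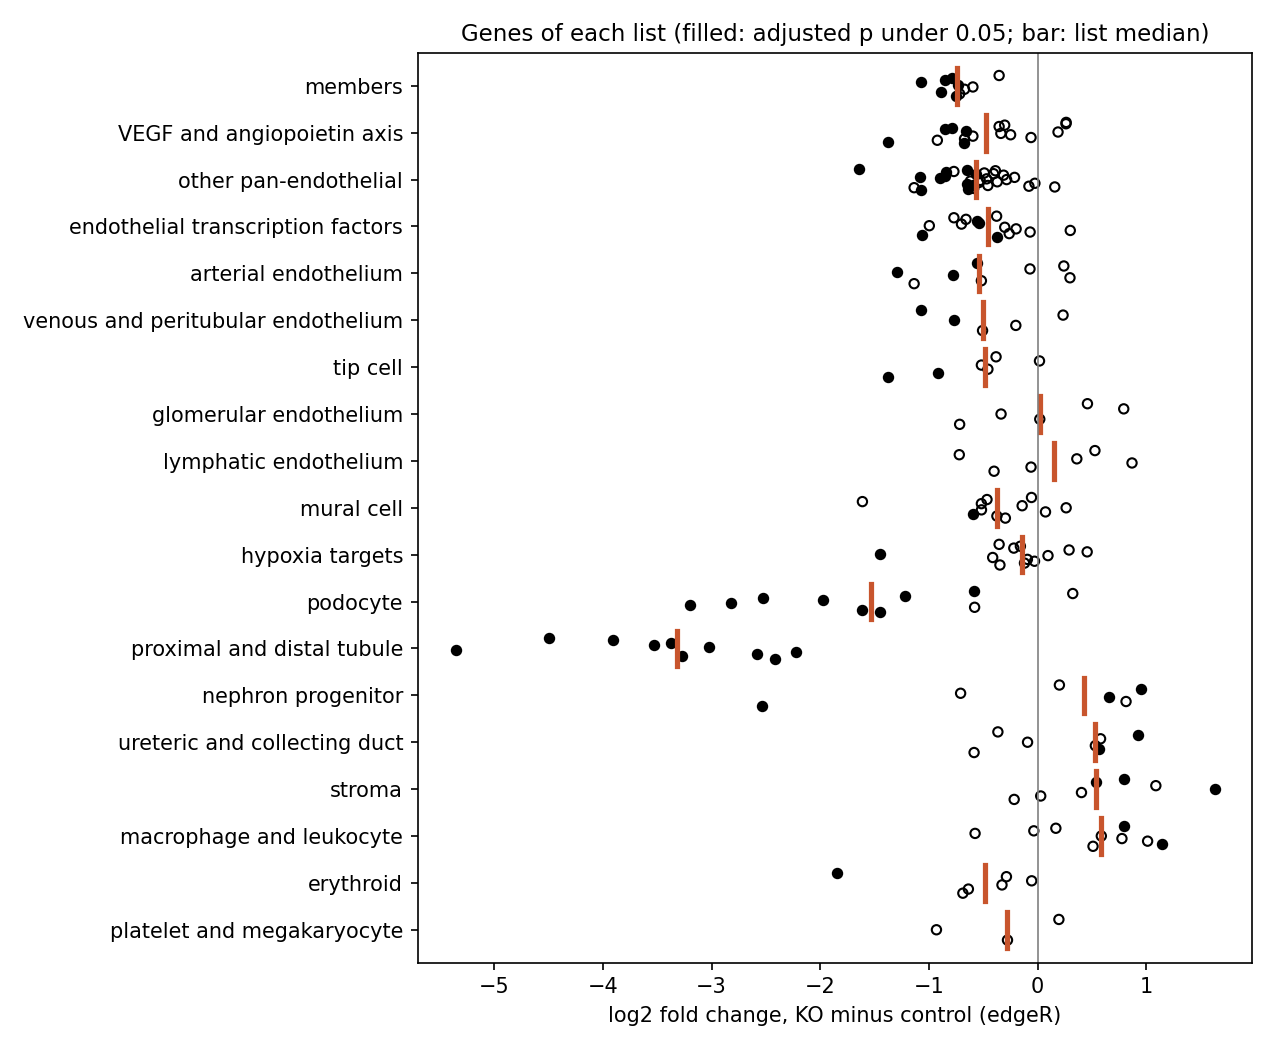
Log2 fold change (KO minus control, x axis) of every tested gene in each list, with the list median as a bar and filled points past an adjusted p of 0.05. The median of the 10 genes, -0.74, lies between those of the podocyte list, -1.53, and the stromal list, 0.54. The glomerular and lymphatic endothelial lists have medians of 0.02 and 0.15, with genes on both sides of 0.

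Methylation was read in the same design from separate libraries. Within 1000 bases of the start, or of both gene ends where no start was matched, Kdr, Flt1, Ehd3, Plvap and Vegfa had positions that reached 10 calls in each of the 9 libraries. None of the 5 was called in KO, where 5.53% of gene windows were lower and 0.0590% higher. Kdr, Flt1 and Vegfa were near 0 in controls, so a loss could hardly be seen there. The median window was at 1.86% in controls. The 1185 windows at 60% or more in controls had a median difference of -23.1 percentage points in KO. The groups of all 5 genes overlapped, while 19.0% of windows had every KO sample below every control and 2.80% above. Flt1, read at 22 positions, was at 1.24%, 1.76% and 0.436% in controls, against 0.577%, 1.18% and 1.81% in KO samples. Vegfa averaged 2.11% ± 1.10 in controls and 3.23% ± 1.86 in KO samples, and Kdr 1.51% ± 1.33 and 0.631% ± 1.09 (SD, n = 3 each). Ehd3, with 4 positions, was at 30.0% ± 8.15 and 22.8% ± 10.8, and Plvap, with 6 positions, at 20.2% ± 1.24 and 20.2% ± 7.87. None was called in adults either, against 16.9% of windows lower and 2.35% higher. Kdr was at 3%, 3.93% and 4.55% in adults, above every control (6.18% of windows), and Vegfa at 0%, 0.806% and 0%, below every control (28.6% of windows).

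Inside the gene bounds and away from the starts, 8 of the 9 genes with data were less methylated in KO, and so were 77.6% of all genes. These 8 had every KO sample below every control, as did 79.6% of genes. Emcn, at 4 positions, was at 90.7%, 89.9% and 86.5% in controls, against 53.7%, 65.0% and 53.7% in KO samples, a difference of -31.6 percentage points (adjusted p = 9.67e-07). Flt1, at 50 positions, was at 60.4%, 62.8% and 60.5% in controls, against 48.6%, 44.7% and 52.7% in KO samples, a difference of -12.6 points (adjusted p = 0.000302). The remaining 6 that fell, Pecam1, Kdr, Tek, Tie1, Ehd3 and Vegfa, differed by -17.5 to -22.9 points, beside a median of -19.7 over all genes. All 8 were above 60% in controls, and the 9328 genes at 60% or more had a median of -22.3 points (quartiles -27.1 and -18.1). An exact permutation test of 3 against 3 samples cannot go below p = 0.1, which these 8 genes reached. Plvap had 1 position, at 0.877% in controls, against 6.50% in KO samples, and was not called, although its KO samples lay above the controls (0.346% of genes). Which cells lost methylation cannot be told apart in these bulk libraries.

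Wild type adults were compared with the newborn controls at the same positions. The difference from controls was -15.5 points for Kdr, -10.5 for Emcn and -15.9 for Vegfa (adjusted p = 0.00300, 0.00779 and 0.000549), against 12.0% of genes called lower and 7.07% higher. These 3 and Flt1 had every adult sample below every control, as did 19.1% of genes, while 14.7% had every adult sample above. Age, genotype and cell makeup cannot be told apart in that comparison.

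**Figure D5:**
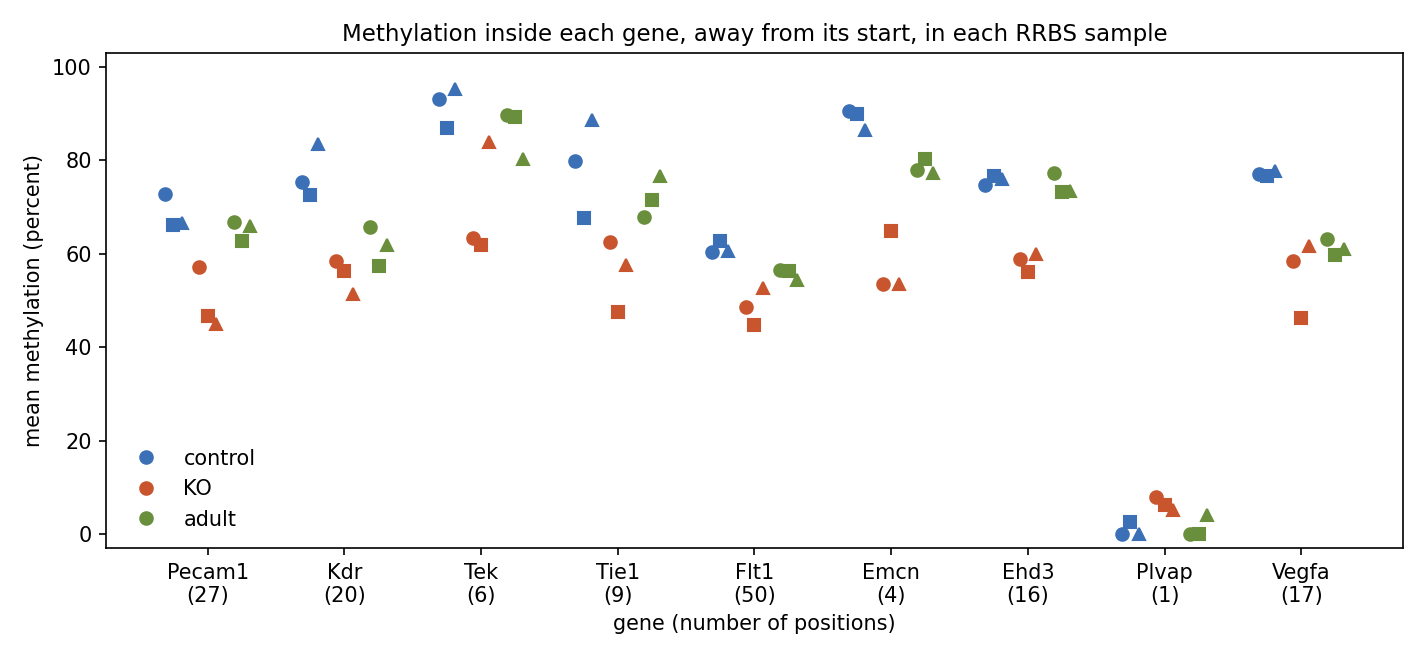
Mean methylation (percent, y axis) inside each gene away from its start, in 3 control, 3 KO and 3 adult RRBS samples, with the number of positions under each name. KO samples lie below the controls in 8 genes, and Plvap, with 1 position, lies near 0.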

How the data were processed

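Counts per gene were deposited for 6 RNA libraries and, per the file contents, methylated and unmethylated call counts with a methylation percent per position for 9 RRBS libraries; the percent was deposited by the authors and was recomputed here from the counts. Per the submitters' processing notes, Trim Galore, Bismark, STAR 2.4.1d and HTSeq 0.6.1 were used with mm10/GRCm38. Rows for reads assigned to no gene (22.9% to 35.8% of reads) were left out. RNA was tested with edgeR 4.0.16 (quasi-likelihood, TMM, filterByExpr, Benjamini-Hochberg over 18132 genes), and methylation with edgeR on call counts summed per gene, at positions that reached 10 calls in each of the 9 libraries. RRBS medians were 4 to 18 calls per position. Relative levels used log2(CPM + 0.1). The genes and 19 lists were chosen with earlier results of these data known; methylation inside gene bounds was added after seeing the data. Named genes were the 10, every VEGF and angiopoietin gene, Dnmt1, and from each other list the up to 3 genes with the smallest p past the threshold, or the 1 with the smallest p. Alternatives changed scaling, filter, tool (DESeq2 1.42.0, limma 3.58.1), threshold, window and samples. The code was tested on simulated data.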

Additional observations from a re-analysis of the deposited data

How the results depend on the processing

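The 10 genes kept a negative log2 fold change in each of the 15 RNA alternatives, and Tek, Emcn and Plvap passed in all of them. Leaving out 1 library moved the number of the 10 called lower between 3 (without KO sample 1 or 2) and 9 (without control sample 3), with 0 higher; VEGF and angiopoietin genes lower between 2 and 9, with 0 higher; other endothelial genes lower between 5 and 26, and higher between 0 and 1; and all genes lower between 701 and 2561, and higher between 647 and 2512. With limma voom and quality weights, 9 VEGF and angiopoietin genes and 28 other endothelial genes were lower and 1 higher, among 2595 lower and 2442 higher in all; at an adjusted p of 0.01 these were 2 and 5, among 681 lower and 528 higher. At least 10 counts in every sample left 678 genes higher. Flt4 turned to 0.025 with upper-quartile scaling, and ranged from -0.16 to 0.11 (without control sample 1) with 1 library left out. A 5000-base window called 2 genes lower in methylation, Pecam1 (-23.3 points, window around both gene ends) and Emcn (-39.1). Their controls averaged 74.4% and 96.5%. The share of all 5000-base windows called lower is not given, so this count has no background beside it. At the main window size, windows at 60% or more in controls had a median difference of -23.1 points in KO. With limma on percent, 1 gene, Plvap, was called higher inside its bounds. Same-numbered samples did not deviate together (RNA correlations -0.236 to -0.0653), so numbers were not treated as pairs; with the replicate block, 5 of the 10 genes, 4 VEGF and angiopoietin genes and 9 other endothelial genes were lower, and methylation counts were 0 near starts and 8 inside bounds. Without each RRBS library in turn, the counts of genes lower stayed at 0 near starts, and inside bounds at 8 in KO and 3 in adults, with 0 higher. The causes were not tested. RRBS gave values near the start, or for Plvap near either gene end, for 5 of the 10 genes.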
